A study of Mus musculus with 3 samples.

Results

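The 9 genes described here encode components of the complement system. They were chosen by symbol, with earlier results of these data known, as a list of components made by fibro/adipogenic progenitors (FAPs) and macrophages. They are C1qa, C1qb, C1qc, C1ra, C1s1, C4b, C3, C7 and C3ar1, 9 of the 32285 genes in the files, and all were found under 1 identifier each. They were measured by droplet single-cell RNA sequencing of mouse tibialis anterior muscle 4 days after an injection of barium chloride (BaCl2), which destroys muscle fibres and starts regeneration. Muscles were injured in all 3 groups, and neither uninjured muscle nor young mice given rMETRNL were analysed here. The groups were young mice given PBS (young PBS), old mice given PBS (old PBS), and old mice given recombinant meteorin-like protein (old rMETRNL), a secreted factor. The study's methods name C57/BL6J mice and the pooling of several mice into the 1 library of a group, so there was no replicate, no test between groups was made, and an interval in parentheses is a 95% interval that covers counting error only. The age comparison set old PBS against young PBS and the treatment comparison set old rMETRNL against old PBS. Both use the old PBS library, so a value that is unusual in that library moves both comparisons in opposite directions.

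Complement is a set of plasma proteins that tag and clear microbes, immune complexes and dying cells. In the classical pathway, C1q recognises the target and activates the proteases C1r and C1s, which cut C4 and C2 and so form an enzyme that cuts C3. Fragments of C3 coat the target for uptake by macrophages or act on receptors such as C3aR, and later components, C7 among them, join in a complex that inserts into membranes. The liver makes most of the circulating proteins, but macrophages are a main source of C1q, and fibroblast-like cells make C1r, C1s, C3 and C4 within tissues.

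The 3 libraries held 12168, 12568 and 14012 cell barcodes with 218059089, 179295668 and 228966697 UMIs, counts of distinct RNA molecules, in young PBS, old PBS and old rMETRNL. After filters on genes, mitochondrial UMIs and doublet calls, 10313, 10031 and 11436 cells were kept. Between 58 and 80 barcodes were shared by a pair of libraries. Clusters were named from fixed marker lists with no complement gene in them, and the complement genes were also left out of the clustering. Cells are called macrophage/monocyte-like (5788, 5338 and 6205 cells) and FAP-like (1690, 1411 and 1747 cells) because the names rest on transcripts alone, and in both classes all 12 markers of the list were detected in at least 10% of the cells. The median cell had 14323 to 14899.5 UMIs in the macrophage/monocyte-like class and 22419 to 26178.5 in the FAP-like class. Levels are in CPM, the UMIs of a gene per 1000000 UMIs of the class in a library. They are not divided by transcript length, so a level is compared between classes and libraries and not between genes. Where 3 values are given without names, they are in the order young PBS, old PBS, old rMETRNL.

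The genes lie in a few places of the genome (GRCm38, GENCODE M21). The C1q chains are neighbours on chromosome 4, all on the minus strand: C1qa (ENSMUSG00000036887) at chr4:136895917-136898803, C1qc (ENSMUSG00000036896) at chr4:136889804-136893065 and C1qb (ENSMUSG00000036905) at chr4:136880129-136886187, an interval of 18675 bases with 0 other protein-coding genes within the gaps. The protease genes C1ra (ENSMUSG00000055172, chr6:124512405-124523443, plus strand) and C1s1 (ENSMUSG00000038521, chr6:124530345-124542359, minus strand) lie 6901 bases apart, tail to tail. C3ar1 (ENSMUSG00000040552) is on the same chromosome at chr6:122847138-122856161. C3 (ENSMUSG00000024164, chr17:57203970-57228136) and C4b (ENSMUSG00000073418, chr17:34728380-34743882) are both on chromosome 17, and C7 (ENSMUSG00000079105) is at chr15:4988762-5063740. Neighbouring copies can share reads: of the 50-base windows in the last 500 bases of the longest transcript, 38.1% of those of C4b also occur in C4a, 19.1% of those of C1ra in C1rb and 18.0% of those of C1s1 in C1s2. The copies were counted at 0.626, 0.276 and 0.825 CPM or less in FAP-like cells, so nearly all counted UMIs were on C4b, C1ra and C1s1, while reads from the shared windows cannot be told apart.

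Promoter windows of 300 bases, 250 of them before the start of transcription, were matched in RefSeq (GRCm38.p6) for 7 of the 9 genes. C1qa and C4b had no window. Windows that hold a searched motif are shown, with C1qb and C1qc of macrophages beside the genes of FAPs. Their letters can thus be set beside the levels that follow. Capitals mark GAGGAA, the core that the ETS factor PU.1 binds, and TTGCNNAA, a form of the C/EBP motif, each searched on both strands. The windows are C1qb chr4:136886151-136886450, C1qc chr4:136892865-136893164, C3 chr17:57228087-57228386, C1ra chr6:124512371-124512670 and C1s1 chr6:124542310-124542609, each read along the gene's own strand.
C1qb: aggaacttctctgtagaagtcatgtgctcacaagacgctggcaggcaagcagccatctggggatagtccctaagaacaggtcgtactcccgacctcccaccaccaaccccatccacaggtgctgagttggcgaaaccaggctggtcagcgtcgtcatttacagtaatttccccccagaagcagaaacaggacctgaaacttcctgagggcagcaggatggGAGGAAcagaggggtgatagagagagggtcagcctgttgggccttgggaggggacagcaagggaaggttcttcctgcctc
C1qc: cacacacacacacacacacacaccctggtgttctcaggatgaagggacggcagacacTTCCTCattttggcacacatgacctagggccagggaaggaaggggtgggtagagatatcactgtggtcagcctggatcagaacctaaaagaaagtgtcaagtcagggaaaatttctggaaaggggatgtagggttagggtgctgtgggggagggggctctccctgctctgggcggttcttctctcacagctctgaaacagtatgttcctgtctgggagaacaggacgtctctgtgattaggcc
C3: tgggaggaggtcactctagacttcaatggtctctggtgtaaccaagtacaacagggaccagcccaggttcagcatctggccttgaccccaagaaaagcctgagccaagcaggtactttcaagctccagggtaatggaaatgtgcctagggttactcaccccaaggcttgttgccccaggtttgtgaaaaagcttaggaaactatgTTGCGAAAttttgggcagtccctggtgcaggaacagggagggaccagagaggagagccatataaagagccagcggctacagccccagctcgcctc
C1ra: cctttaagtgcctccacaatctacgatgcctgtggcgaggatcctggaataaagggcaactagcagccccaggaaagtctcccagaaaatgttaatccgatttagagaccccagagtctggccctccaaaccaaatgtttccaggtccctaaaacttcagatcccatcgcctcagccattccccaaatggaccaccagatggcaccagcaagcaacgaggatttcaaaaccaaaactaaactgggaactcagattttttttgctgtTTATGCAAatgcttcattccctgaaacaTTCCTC
C1s1: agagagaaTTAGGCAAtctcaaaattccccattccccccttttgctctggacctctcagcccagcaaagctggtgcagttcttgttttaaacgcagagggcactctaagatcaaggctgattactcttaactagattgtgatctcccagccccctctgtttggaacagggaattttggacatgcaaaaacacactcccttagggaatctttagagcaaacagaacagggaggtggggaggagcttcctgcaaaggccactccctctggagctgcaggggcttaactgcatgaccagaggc
Both C1q windows held GAGGAA, C1qb 30 bases before the start and C1qc on the opposite strand 193 bases before it, and 28.3% of all 32851 promoter windows hold it. The windows of C3, C1ra and C1s1 held TTGCNNAA, against 10.8% of all windows, at 45 and 242 bases before the start in C3 and C1s1. C1ra held both motifs, each after the start. A second C1s1 window, which starts downstream, held neither. The windows of C7 and C3ar1 held none of the letters searched. A match is a description of these letters and shows no binding.

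The members fell into macrophage genes and stromal genes. C1qa, C1qb, C1qc and C3ar1 were highest in macrophage/monocyte-like cells, which held 90.8% to 95.6% of the UMIs of each of these genes among kept cells, and of the 8 classes with at least 50 cells in every library none of the others passed 6.08% of their mean level in macrophage/monocyte-like cells. Among these 8 classes, C1ra, C1s1, C4b, C3 and C7 were carried by FAP-like cells, tenocyte-like cells and, for the proteases, pericyte/smooth muscle-like cells. A glial-like class of 30, 93 and 52 cells was too small in young PBS for its levels to be set beside these. With 0.291%, 0.927% and 0.455% of kept cells, it held 0.635%, 0.775% and 0.481% of the C4b UMIs. Its shares of the C1s1 UMIs were 0.951%, 1.14% and 0.375%. In old PBS, FAP-like cells held 78.4% of the C3 UMIs, 91.3% of the C1s1 UMIs and 93.1% of the C7 UMIs but 55.8% of the C4b UMIs, since macrophage/monocyte-like cells held another 39.9%.

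**Figure D1:**
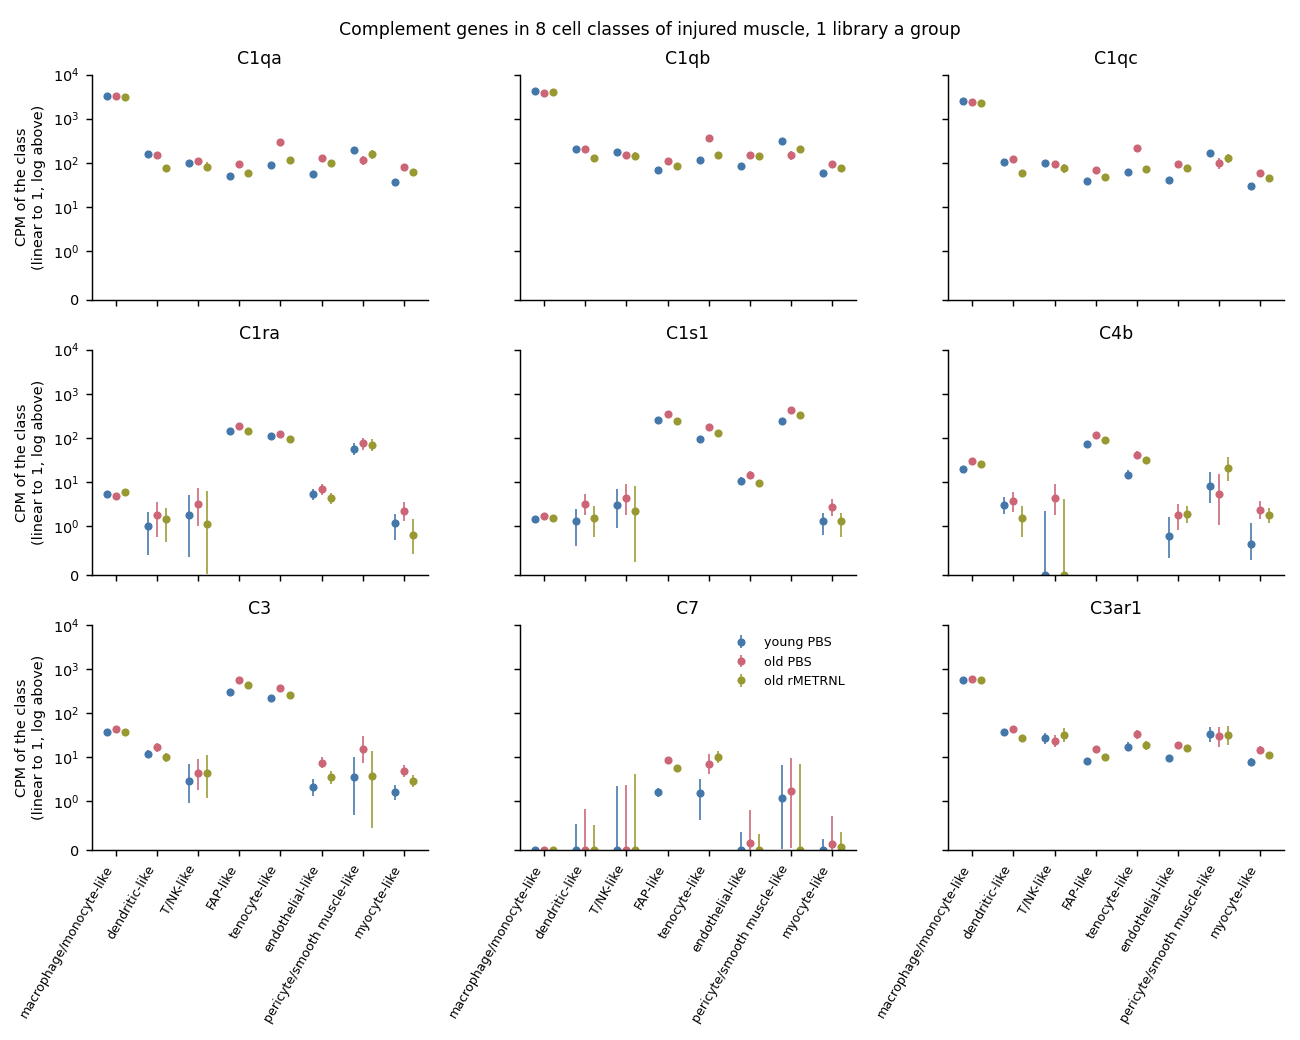
Levels of the 9 complement genes (CPM of the class, linear to 1 and logarithmic above) in 8 marker-defined classes, one point per library with its 95% counting interval. C1qa, C1qb, C1qc and C3ar1 stand highest in macrophage/monocyte-like cells in all 3 libraries, and C1ra, C1s1, C4b, C3 and C7 in FAP-like, tenocyte-like or pericyte/smooth muscle-like cells.

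C1q is built from A, B and C chains, one gene each, and all were abundant in macrophage/monocyte-like cells. C1qa was at 3309.8, 3223 and 3041 CPM. C1qb was at 4229, 3871 and 3941 and C1qc at 2499.6, 2402 and 2269 in the same order. Young PBS was highest for each chain, and old rMETRNL over young PBS was 0.919, 0.932 and 0.908 for C1qa, C1qb and C1qc. The age ratios were 0.974 (0.969 to 0.979) for C1qa, 0.915 (0.911 to 0.920) for C1qb and 0.961 (0.955 to 0.966) for C1qc, and the treatment ratios were 0.943, 1.02 and 0.945. These intervals are narrow because each chain rests on 214490 to 409244 UMIs a library, and they say nothing of the spread between mice.

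The chains were found together in the same cells. With every cell thinned to 2000 UMIs, so that depth is equal, all 3 chains were detected in 82.8%, 86.7% and 80.6% of macrophage/monocyte-like cells, and none in 5.74%, 3.52% and 6.39%. C1qa was detected in 86.6% (85.7 to 87.5), 91.1% (90.3 to 91.9) and 84.8% (83.9 to 85.7) of thinned cells, against 5.39%, 8.37% and 6.48% of thinned FAP-like cells. The share was thus highest in old PBS, where the level was not, and no order is read from it. The chains kept nearly the same proportions in every library: C1qa gave 32.9% to 33.9% of the C1q UMIs, C1qb 40.8% to 42.6% and C1qc 24.5% to 25.3%.

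Between sub-clusters of macrophage/monocyte-like cells C1q varied far more than between libraries. The cells were divided into 12 sub-clusters, called here by number and leading genes. The lowest level of all chains was in sub-cluster 5, led by Gm9733, Ly6c2 and Klra2 (Ly6c2 marks recruited monocytes), with C1qa at 1218, C1qb at 2078 and C1qc at 906 CPM over the 3 libraries. C1qa and C1qc were highest in sub-cluster 13, led by Cd209f, Cd209g and Pla2g2d, at 4696 and 3598. C1qb was highest in sub-cluster 7, led by Slfn1, BC147527 and Themis2, at 5270.2. The cycling sub-cluster 11, led by Nusap1, Iqgap3 and Spc25, held C1qa at 2570.3, and sub-cluster 6, led by Rnf128 and Atp6v0d2, at 2133.

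The small library differences in C1q did not run through all sub-clusters. The age ratio of C1qa was above 1 in 6 of the 12 sub-clusters and below 1 in 6, from 0.759 in sub-cluster 5 to 1.27 in sub-cluster 9. For C1qb it was below 1 in 8 of 12. In sub-cluster 5 the 3 libraries read 1429.7, 1085 and 1136 for C1qa, so young PBS was above both old libraries. In sub-cluster 9, led by Celf6, Ubash3a and Cd5l, they read 3203, 4067 and 3383, with old PBS above the others. With the makeup of sub-clusters held equal between libraries, the age ratio was 1.04 for C1qa and 1.01 for C1qc, above 1 in place of below it, and 0.978 for C1qb.

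C3ar1 encodes the receptor for the C3 fragment C3a. It was at 574, 589 and 574 CPM in macrophage/monocyte-like cells, the narrowest range of the members detected in that class. Set as ratios, age gave 1.03 (1.01 to 1.04) and treatment 0.973 (0.962 to 0.985). After thinning it was detected in 62.3%, 65.1% and 62.4% of these cells, against 1.42%, 2.79% and 1.27% of FAP-like cells. Sub-clusters 13, 3 (led by Lyve1, F13a1 and Cd163) and 0 (led by Il10, Nlrp3 and Cxcl2) stood highest at 841, 779 and 777, and sub-cluster 5 lowest at 344. In sub-cluster 3 the libraries differed most: C3ar1 was at 733, 940.1 and 701, 1.28 (1.23 to 1.33) for age and 0.746 (0.721 to 0.770) for treatment. Over the whole class the age ratio of C3ar1 was 0.985 with the makeup of sub-clusters held equal, and 0.980 under a stricter filter on cells.

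**Figure D2:**
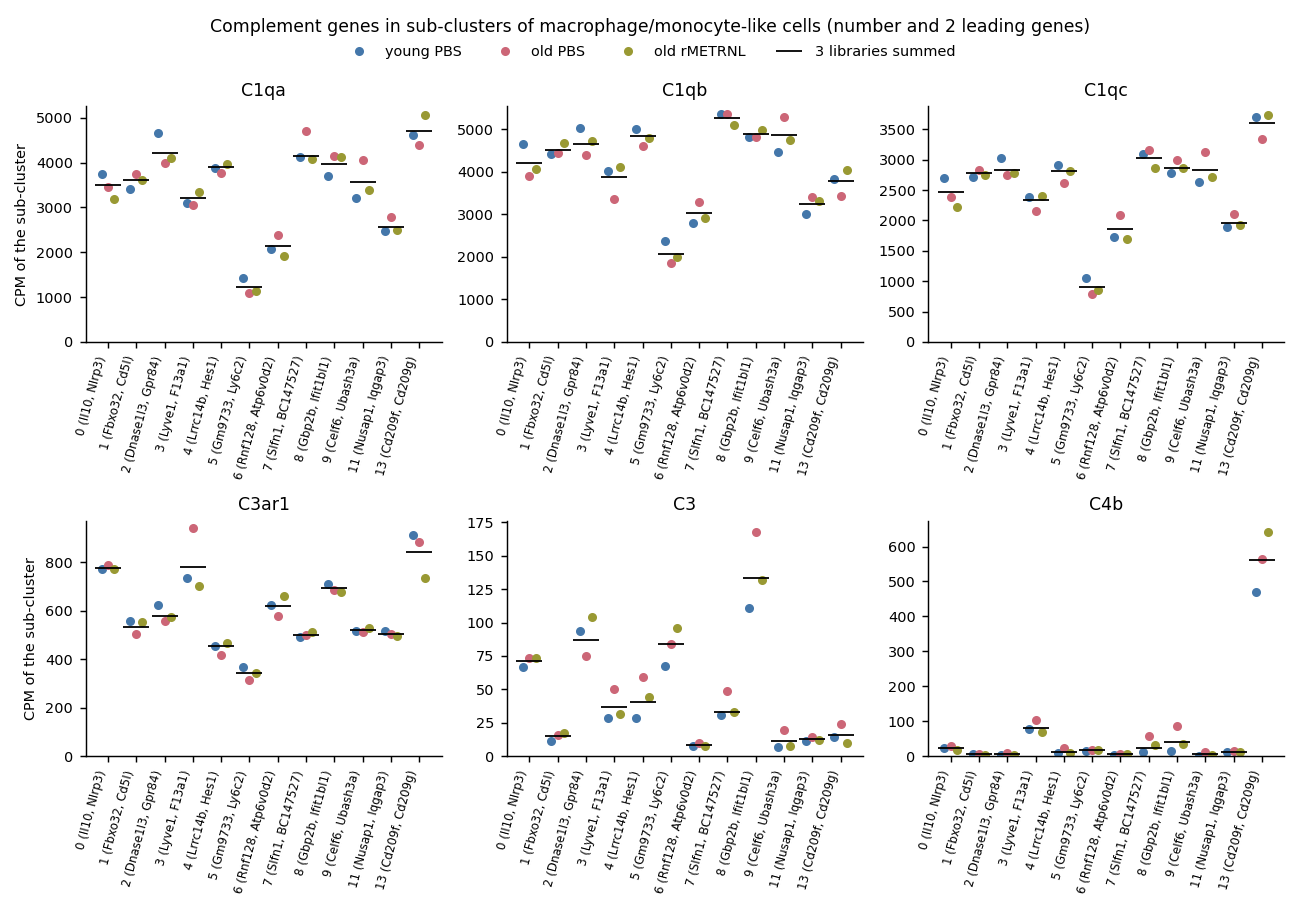
Levels of C1qa, C1qb, C1qc, C3ar1, C3 and C4b (CPM of the sub-cluster) in 12 sub-clusters of macrophage/monocyte-like cells, one coloured point per library with at least 50 cells and a black bar for the 3 libraries summed. Sub-cluster 5 is lowest for the C1q chains and C3ar1, and the bar of C4b stands at 561 in sub-cluster 13 and at 81.9 or below elsewhere, with old PBS points at 105 in sub-cluster 3 and 85.6 in sub-cluster 8.

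The proteases that C1q activates came from stromal cells. C1s1 encodes C1s, the protease that cuts C4 and C2, and in FAP-like cells it was at 253, 357 and 246 CPM. The old PBS library stood above both others, whose intervals (248 to 257 and 241 to 250.3) overlapped. For age the ratio was 1.41 (1.38 to 1.45), for treatment 0.689 (0.671 to 0.707), and old rMETRNL over young PBS was 0.973 (0.948 to 0.998). The same order held in the sub-clusters: of 10 FAP-like sub-clusters with at least 50 cells in the libraries compared, the age ratio of C1s1 was above 1 in 10, each with its interval above 1, and the treatment ratio was below 1 in 10, with 9 intervals below 1. C1s1 was highest in sub-clusters 8 (led by Hmcn2, Hsd11b1 and Ces1d) and 10 (led by Myoc, Inmt and Gdf10) at 541 and 518 (number 8 held 14, 96 and 45 cells, too few to compare), and lowest in the cycling sub-cluster 7 (led by Mxd3, Depdc1a and Anln) at 109. After thinning, C1s1 was detected in 41.2%, 52.8% and 39.97% of FAP-like cells and in 0.244%, 0.342% and 0.358% of macrophage/monocyte-like cells.

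C1ra encodes C1r, which activates C1s. It was at 147, 182 and 141 CPM in FAP-like cells, again highest in old PBS. The age ratio of 1.24 (1.202 to 1.29) was the smallest of the stromal members and the treatment ratio was 0.770 (0.744 to 0.798). The age ratio was above 1 in 9 of 10 sub-clusters, but 5 intervals were above 1, so the order was less regular than for C1s1. The exception was sub-cluster 11 at 0.924, where macrophage genes were also counted, as described below. At 2000 UMIs a cell, both protease genes were detected in 13.0% of FAP-like cells of young PBS, 21.2% of old PBS and 12.4% of old rMETRNL.

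C1s1 did not belong to FAP-like cells alone. Among the 8 classes compared, its mean level was higher in pericyte/smooth muscle-like cells, at 245, 419.6 and 329.7 CPM, but the ranges of these classes overlapped. Tenocyte-like cells followed at 95.2, 176 and 131, and endothelial-like cells were far lower at 9.22 to 14.6. In both the pericyte/smooth muscle-like and the tenocyte-like class old PBS was highest, with age ratios of 1.71 (1.42 to 2.07) and 1.85 (1.61 to 2.12). C1ra ran FAP-like, tenocyte-like, pericyte/smooth muscle-like in decreasing order with no overlap of the 3 libraries between neighbours.

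C4b encodes complement component C4, which becomes part of the enzyme that cuts C3. In FAP-like cells it was at 71.0, 114 and 89.2 CPM, and these 3 intervals did not overlap. For age the ratio was 1.61 (1.54 to 1.69), for treatment 0.781 (0.747 to 0.816) and old rMETRNL over young PBS 1.26 (1.201 to 1.32). The highest sub-clusters were 10 at 239.6 and 5, led by Pi16, Sema3c and Efhd1, at 199, while sub-cluster 1, led by Foxs1, Nrep and Dio2, was at 20.3. In sub-cluster 5 the libraries read 209.6, 201 and 190.2, with young PBS highest by a small margin, whereas in sub-cluster 10 they read 209.9, 333 and 166. With the makeup of sub-clusters held equal, C4b was at 1.32 for age and 0.860 for treatment.

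C4b was also a macrophage gene, in few cells. In macrophage/monocyte-like cells it was at 19.5, 30.02 and 25.1 CPM, 1.54 (1.45 to 1.63) for age and 0.837 (0.793 to 0.883) for treatment. Sub-cluster 13, with 202 of the 17331 cells, held 22.2% of the class's C4b UMIs at 561 CPM, and sub-cluster 3 held another 27.0% at 81.9. Sub-cluster 8, led by Gbp2b, Ifit1bl1 and Serpina3g, interferon-induced genes among them, followed at 40.9, with 14.01, 85.6 and 36.5 in the 3 libraries. The age ratio was above 1 in 12 of 12 sub-clusters, with 10 intervals above 1. It was 6.11 (4.56 to 8.31) in sub-cluster 8 and highest in sub-cluster 9, at 7.11 with a wide interval (2.55 to 27.5). Without sub-cluster 13 the levels were 15.1, 24.5 and 19.2 and the age ratio 1.62 (1.52 to 1.74).

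C3 is the component on which the complement pathways converge. In FAP-like cells it was at 302, 569 and 424 CPM, from 14198, 18648 and 19649 UMIs, and the 3 intervals lay well apart. Tenocyte-like cells overlapped that range at 222, 360.1 and 251 CPM. For age the ratio was 1.89 (1.85 to 1.93), for treatment 0.745 (0.730 to 0.760) and old rMETRNL over young PBS 1.41 (1.38 to 1.44), so old rMETRNL stood between the PBS libraries. After thinning, C3 was detected in 30.3% (28.1 to 32.6), 49.5% (46.8 to 52.2) and 39.4% (37.1 to 41.8) of FAP-like cells, and in 7.13%, 8.20% and 8.02% of macrophage/monocyte-like cells. Without thinning the FAP-like shares were 67.4%, 80.2% and 72.9%.

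C3 was uneven among FAP-like sub-clusters. Sub-cluster 5, led by the adventitial genes Pi16 and Sema3c, was at 883 CPM, sub-cluster 8 at 871, sub-cluster 6 (led by Cxcl14, Il33 and Gm16685) at 677 and sub-cluster 10 at 673. The lowest were sub-clusters 4 (led by Il11, Inhba and Il1rl1) at 116, 1 at 141 and the cycling 7 at 149.7. The sub-clusters above the class level of C3, numbers 5, 6, 8, 9 and 10, held 34.0% (31.8 to 36.3), 58.7% (56.1 to 61.3) and 48.1% (45.8 to 50.5) of FAP-like cells. They were picked by the C3 level of these same cells with the libraries summed, so the shares are not independent of the C3 ratios. Sub-cluster 11, at 415 CPM, fell just below the class level of 416. With the makeup of sub-clusters held equal between libraries, the age ratio of C3 was 1.54 and the treatment ratio 0.828.

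Within sub-clusters the age ratio of C3 differed widely. In sub-cluster 0, led by Chl1, Tnn and Sfrp1, the libraries read 293, 678 and 386, 2.31 (2.17 to 2.46) for age and 0.569 (0.529 to 0.613) for treatment. In sub-cluster 5 they read 899, 1055 and 764, or 1.17 (1.12 to 1.23) for age. Over 10 sub-clusters the age ratio was above 1 in 9, and the exception was sub-cluster 11 at 0.862 (0.782 to 0.950). Macrophage genes were also counted in sub-cluster 11, as described below, with C1qa at 736, 1185 and 707 CPM. The treatment ratio was below 1 in 7 of 10, with 6 intervals below 1 and 2 above.

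In macrophage/monocyte-like cells C3 was at 36.6, 42.5 and 37.6 CPM, or 1.16 (1.11 to 1.22) for age. Sub-cluster 8 was highest at 133, followed by sub-clusters 2 (led by Dnase1l3, Gpr84 and Slc7a11) at 87.0 and 5 at 83.8, and sub-cluster 6 was lowest at 8.49. In sub-cluster 8 the libraries read 111, 168 and 132.

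C7 takes part in the terminal complex that inserts into membranes, and it was the rarest member. FAP-like cells held 76, 283 and 267 UMIs of it, or 1.62, 8.64 and 5.77 CPM, and macrophage/monocyte-like cells held 0 UMIs in every library, which allows up to 0.0336 CPM there. Both old libraries were above young PBS. For age the ratio was 5.35 (4.14 to 6.98), for treatment 0.667 (0.562 to 0.791) and old rMETRNL over young PBS 3.57 (2.76 to 4.67). Sub-cluster 10, led by Myoc, Inmt and Gdf10, held 57.8% of the C7 UMIs of FAP-like cells at 74.1 CPM, and sub-cluster 5 held 23.5% at 13.1. After thinning, C7 was detected in 0.533%, 3.15% and 1.68% of FAP-like cells, and in 0 of 5748, 5256 and 6137 macrophage/monocyte-like cells, which allows shares of up to 0.0522%, 0.0571% and 0.0489% of cells with a UMI at this depth and sets no limit on cells expressing C7.

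The 2 comparisons of C7 differed once sub-clusters were separated. In sub-cluster 10 C7 was at 22.8, 100.03 and 94.9 CPM, 4.38 (3.04 to 6.496) for age and 0.949 (0.759 to 1.19) for treatment. The old libraries thus differed by no more than counting error there, while young PBS was below both. With the makeup of sub-clusters held equal, C7 was at 3.28 for age and 0.843 for treatment. Tenocyte-like cells also held C7, at 1.54, 7.10 and 10.01 CPM from 7, 16 and 44 UMIs, with an interval of the treatment ratio (0.780 to 2.68) that includes 1.

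**Figure D3:**
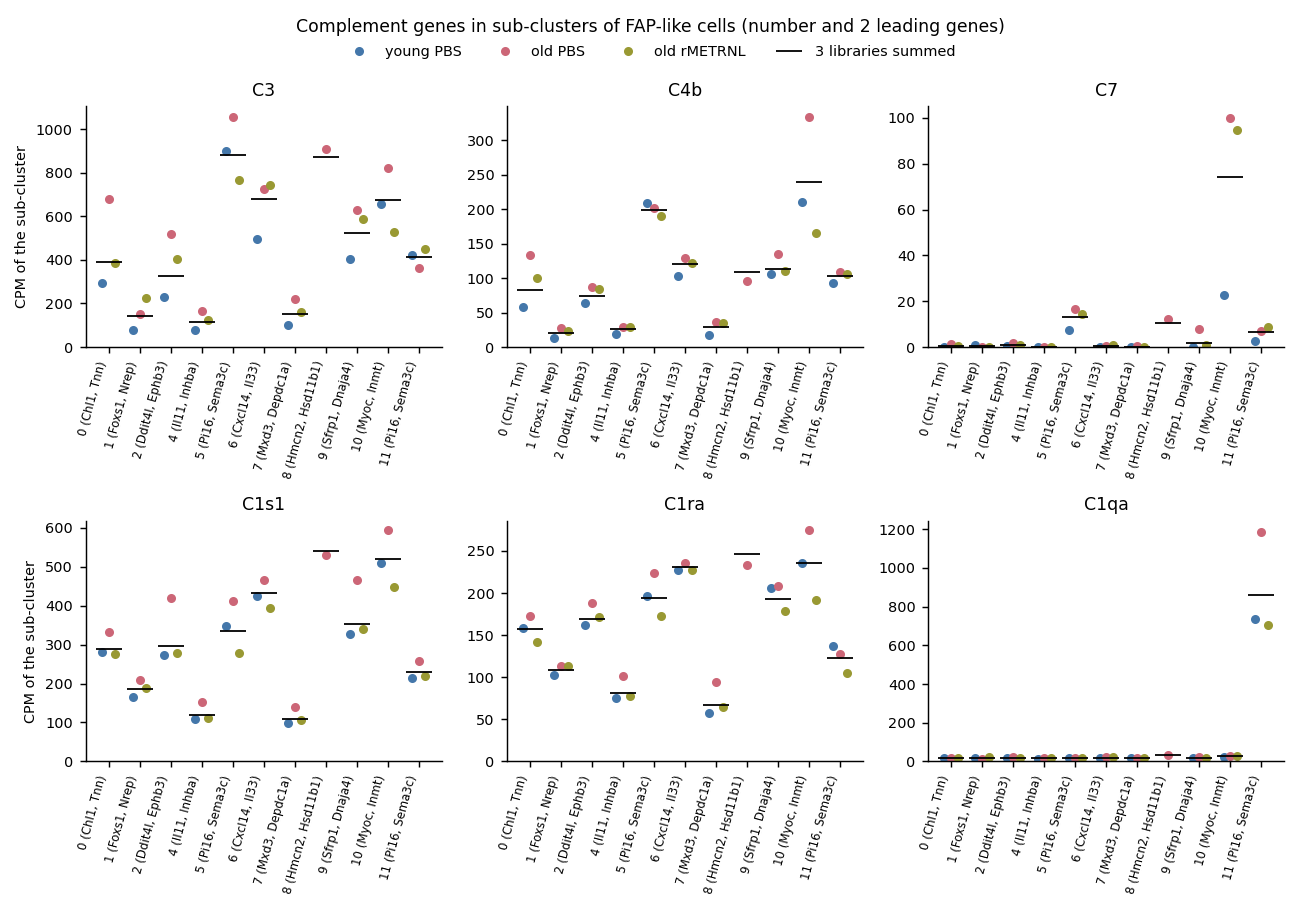
Levels of C3, C4b, C7, C1s1, C1ra and C1qa (CPM of the sub-cluster) in 11 sub-clusters of FAP-like cells, one coloured point per library with at least 50 cells and a black bar for the 3 libraries summed. C7 stands at 74.1 in sub-cluster 10, C1qa at 862 in sub-cluster 11, and old PBS is highest for C1s1 in each sub-cluster where the libraries are compared.

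C1q and C3ar1 UMIs also occurred in FAP-like cells, at percentages of the macrophage level near those of other macrophage genes but not all within their range. C1qa was at 51.1, 95.01 and 57.3 CPM there, which is 1.54%, 2.95% and 1.89% of its level in macrophage/monocyte-like cells of the same library. A reference set of 8 macrophage genes, Lyz2, Tyrobp, Fcer1g, Ctss, Cd68, Laptm5, Csf1r and Adgre1, stood at 1.502% to 1.97%, 2.41% to 2.98% and 2.02% to 2.37% of their macrophage level in the same cells, with none of the 8 at 0. C1qa was below that range in old rMETRNL. C3ar1, at 1.46%, 2.53% and 1.79%, was below it in young PBS and old rMETRNL. Most of the C1q UMIs of FAP-like cells were in 1 sub-cluster. Number 11, with 211 cells, led by Pi16, Sema3c, Efhd1 and Chl1, held the 8 reference genes at 26.4% of their summed macrophage level, against 0.725% to 1.13% in the others. Its C1qa was at 862 CPM, C1qb at 1090, C1qc at 638 and C3ar1 at 133. Its cells had a median of 32029 UMIs and a median doublet score of 0.0632, where the other FAP-like sub-clusters had 0.0286 to 0.0651, and whether they are doublets was not tested.

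Without sub-cluster 11, C1qa was at 17.3, 20.4 and 19.3 CPM in FAP-like cells, or 0.523%, 0.632% and 0.635% of the macrophage level, and the reference genes at medians of 0.685%, 0.886% and 0.817%. In each library C1qa was below the median of these genes, and no expression of C1q by FAPs is read from it. In every class compared, C1qb gave the most C1q UMIs and C1qc the fewest, but the proportions varied more outside macrophage/monocyte-like cells. There C1qa gave 26.9% to 34.7% of C1q UMIs, C1qb 40.2% to 48.2% and C1qc 22.0% to 27.2%. In old rMETRNL, C1qb gave 48.2% (45.9 to 50.5) in dendritic-like cells, against 42.6% (42.5 to 42.7) in macrophage/monocyte-like cells.

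In the opposite direction the picture was mixed. A set of 8 FAP genes, Col1a1, Col3a1, Dcn, Lum, Pdgfra, Mfap5, Fbn1 and Col6a3, stood at 0.223% to 0.528% of their FAP level in macrophage/monocyte-like cells, with none at 0. C1s1 was close to that at 0.474% to 0.611%. C1ra was above it at 2.57% to 4.17%, C3 at 7.46% to 12.1% and C4b at 26.3% to 28.1%, so C3 and C4b in macrophage/monocyte-like cells exceeded the level of FAP genes there.

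**Figure D4:**
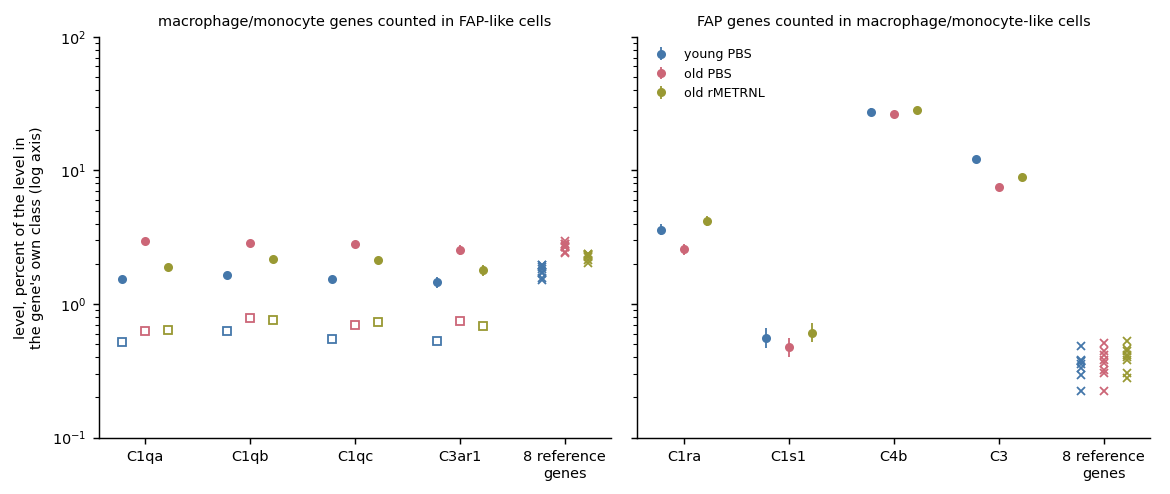
Level of each member in the class where it is low, as a percent of its level in its own class (log axis), with 95% counting intervals; crosses are the 8 reference genes and open squares leave out FAP-like sub-cluster 11. Macrophage members sit at 1.46% to 2.95% in FAP-like cells, near their reference genes, while C4b and C3 stand at 26.3% to 28.1% and 7.46% to 12.1% in macrophage/monocyte-like cells, above theirs.

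Counted together, the members were mostly higher in old PBS in FAP-like cells and mostly level in macrophage/monocyte-like cells. The members were chosen with earlier results of these data known, so their counts are not independent of those results. Among FAP-like cells, 7 of 9 members were at least 1.5-fold higher in old PBS than in young PBS, where 7.77% of 14410 genes with at least 50 UMIs were, and 0 of 9 were 1.5-fold lower, where 6.18% were. The 7 were C1qa, C1qb, C1qc, C3ar1, C4b, C3 and C7, and the first 4 of them are the members at their highest in macrophage/monocyte-like cells. The 8 macrophage reference genes had age ratios of 1.29 to 1.78 in the same cells, and 1.04 to 1.43 without sub-cluster 11. C1qa, at 1.86, and C3ar1, at 1.79, were above the first range. Without sub-cluster 11, 3 of 9 members were past the fold (C4b, C3 and C7). C1qa, C1qb and C1qc then had age ratios of 1.18, 1.14 and 1.22, and C3ar1, from 136 UMIs in each PBS library, 1.46 (1.14 to 1.87). The median log2 age ratio of the members was 0.81 with all FAP-like cells, against -0.03 over all genes in the same cells. It was 0.51 without sub-cluster 11. The share and median over all genes are not given without that sub-cluster.

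In the treatment comparison in FAP-like cells, 1 of 9 members (C1qa) was at least 1.5-fold lower in old rMETRNL, where 4.98% of all genes were, and 0 of 9 were higher, where 3.99% were. C7 at 0.667 (0.562 to 0.791) and C1s1 at 0.689 lay just inside the limit. The 8 macrophage reference genes had treatment ratios of 0.697 to 1.08 in the same cells, and C1qa, at 0.603, was below that range. Every member had a ratio below 1, as did 48.4% of all genes, with a median of -0.49 on the log2 scale against 0.01 over all genes. Without sub-cluster 11 the median of the members was -0.38, with no median over all genes given for those cells. The treatment ratios of C1qa, C1qb and C1qc were then 0.949, 0.990 and 0.986. Because old PBS is in both comparisons, the opposite directions are not independent of each other.

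In macrophage/monocyte-like cells 8 members reached 50 UMIs. In the age comparison 1 of 8 (C4b) was at least 1.5-fold higher, where 6.9% of 14233 genes were, and 0 of 8 were lower, where 6.52% were. C4b was at 1.54, just past the limit, and fell short of it under 7 of 14 other settings. In the treatment comparison 0 of 8 were higher, where 5.85% were, and 0 of 8 lower, where 4.12% were. The median log2 ratios of the members were -0.0003 and -0.08, against 0.002 and 0.045 over all genes. C1ra was the only member whose treatment ratio here, 1.25 (1.10 to 1.42), was above 1 by more than 10%, from 4.68 to 5.87 CPM.

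**Figure D5:**
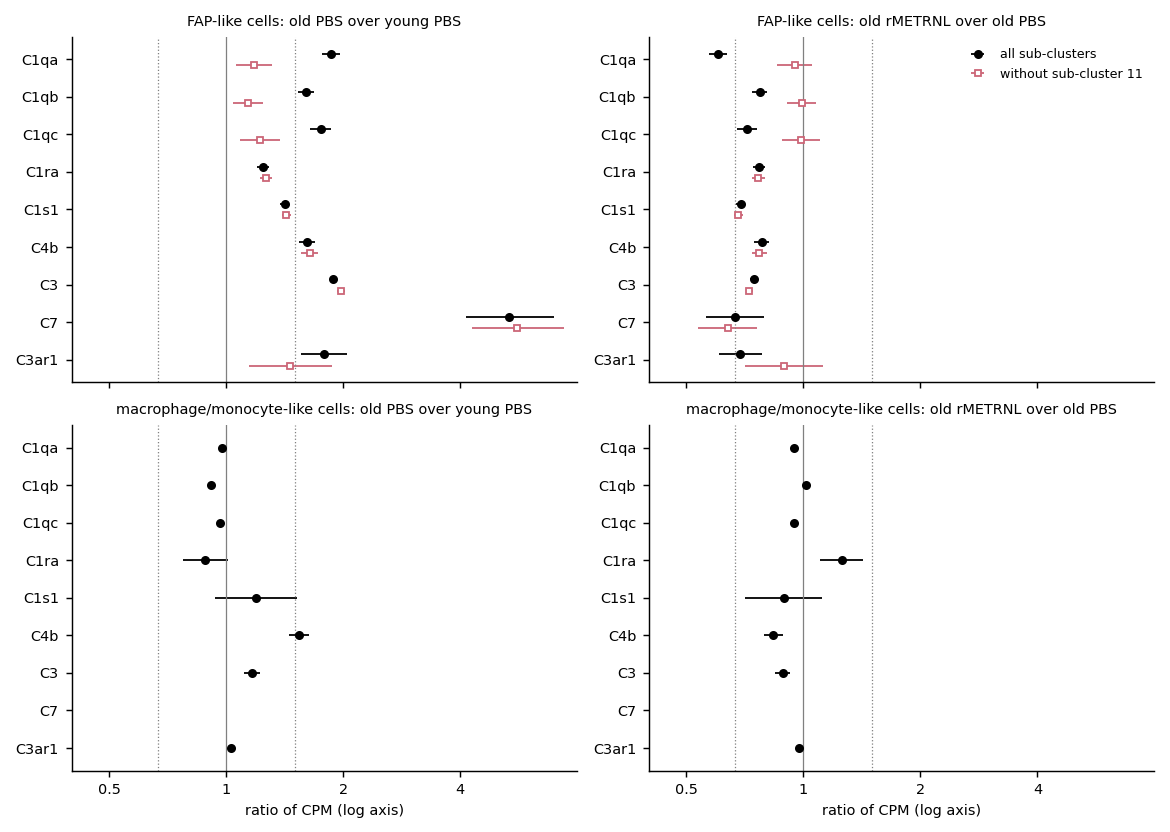
Ratios of the 9 members (log axis, 95% counting intervals) between libraries in FAP-like and macrophage/monocyte-like cells; dotted lines mark 1.5-fold either way and open squares leave out FAP-like sub-cluster 11. In FAP-like cells the C1q chains move to between 1.14 and 1.22 for age without that sub-cluster, while C3 stays at 1.97, C4b at 1.64 and C7 at 5.60; C7 has no UMIs in macrophage/monocyte-like cells.

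Other complement genes came from a list of 51, of which 16 reached 20 CPM in FAP-like cells in some library and 16 in macrophage/monocyte-like cells, members included. In FAP-like cells 16 of 16 had age ratios above 1, where 46.6% of 5904 genes at 20 CPM did, and the C1q chains are 3 of the 16. The list was also chosen with earlier results of these data known, so this count is not independent of them. Treatment ratios were below 1 in 15 of 16, Cr1l being the exception, and in 44.4% of the 5904. Cd55 encodes decay-accelerating factor, a membrane regulator of the C3-cutting enzyme, and was at 40.5, 75.9 and 73.2 CPM, or 1.87 (1.77 to 1.99) for age, so here old rMETRNL stayed near old PBS (treatment ratio 0.964, 0.915 to 1.02).

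Serping1, which encodes the inhibitor of C1r and C1s, was at 924, 1219 and 966 CPM in FAP-like cells, 1.32 (1.30 to 1.34) for age and 0.792 (0.782 to 0.803) for treatment. Old PBS was highest, as for C1s1 and C1ra. Cfb, which supplies the protease of the alternative pathway, was at 341, 406 and 347, C2 at 54.7, 58.7 and 43.0 and Cr1l at 62.1, 70.3 and 73.1. Clu and Vtn, both of which bind terminal complexes, had treatment ratios of 0.654 (0.601 to 0.712) and 0.618 (0.578 to 0.661), past the 1.5-fold limit.

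In macrophage/monocyte-like cells 10 of the 16 listed genes at 20 CPM had age ratios above 1, where 53.8% of 5579 genes at that level did. They included 6 of 6 receptor genes, but 1 of 4 classical pathway genes and 1 of 3 in the group of the alternative pathway and C3. The receptor gene C3ar1, at 1.03, was below 1 under 2 of 12 alternatives. Itgax, a chain of complement receptor CR4, was at 44.0, 85.1 and 49.7, 1.94 (1.87 to 2.01) for age and 0.583 (0.563 to 0.604) for treatment, and was the only receptor gene past 1.5-fold. Itgam was at 151, 183 and 195, Itgb2 at 195, 248 and 221, Cd93 at 289, 339.9 and 307, and C5ar1 at 116, 118 and 133, with an interval of its age ratio (0.996 to 1.05) that includes 1. Properdin, encoded by Cfp, stabilises the C3-cutting enzyme and was highest in old rMETRNL at 198.7, 186 and 255. Cfb was at 118, 113 and 116, Cr1l at 55.7, 55.4 and 56.5 and Fcna, a ficolin of the lectin pathway, at 15.2, 20.6 and 22.6. Hc, which encodes C5, was at 0.108 CPM or less in both classes, and C6 was counted in macrophage/monocyte-like cells at 0.784, 0.873 and 1.002 and at 0 UMIs in FAP-like cells.

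The genes most like each member were found over 24 profiles, 8 classes in 3 libraries, among genes outside the complement list. For C1qa and C1qb the first was Ms4a7 (r = 0.991 for both), for C1qc Trem2 (0.990) and for C3ar1 Trem2 (0.978), with Apoe, Pf4, Adgre1 and Fcgr3 among the next. Ms4a7, Trem2, Pf4 and Adgre1 are also markers that named the class. C3 was nearest to Adam33 (0.952), Isoc2b and Pla2g4a, C4b to Pyroxd2 (0.939), Ccl7 and Rnase4, and C7 to Lrrtm3 (0.950), Lrrn4cl and Dcn. Dcn is likewise a marker that named the FAP-like class. C1s1 was nearest to Slit3 (0.988), Naalad2 and Bmp5, and C1ra to F3 (0.976), Tnxb and C1qtnf2. The 24 profiles share libraries and classes, so r is a description over them.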

How the data were processed

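Muscle cells of 3 libraries, 1 per group, were sequenced on the 10x Genomics platform. The authors deposited raw UMI counts per gene and barcode, with no normalization. The submitters' processing notes name Cell Ranger 5.0.0 and 3.1.0 and mm10, with no role given for either version. The groups were read from the sample labels. Each group has 1 library of pooled mice, so levels and ratios are descriptions with 95% intervals (exact Poisson, exact binomial, or exact conditional for a ratio) that cover counting error only, and no test between groups was made.

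Barcodes needed 500 genes or more, and less than 10% of UMIs from mitochondrial genes. Scrublet in scanpy 1.11.5 called 1, 0 and 0 doublets with its automatic threshold, so the top-scoring barcodes were removed at 0.8% per 1000 barcodes (1125, 1072 and 1408). The libraries shared 80, 58 and 76 barcodes in pairs, and no barcode was removed for that.

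Counts were scaled to 10000 a cell and clustered together on 2000 variable genes, 30 components and 20 neighbours. Leiden clustering was run at resolution 0.8 (igraph 0.11.9), without 51 complement genes. A cluster was named from fixed marker lists where at least 3 markers were detected and the leading 10 genes did not go against the name, which left 1 of 22 clusters unnamed. Both classes were clustered again, and 4 sub-clusters whose leading genes or low UMI counts went against the name (908 cells) were taken out and left unnamed. They held 3.31%, 5.17% and 4.04% of macrophage/monocyte-like cells and 0.938%, 3.69% and 4.80% of FAP-like cells. Sub-clusters are called by number. All 9 members are described, with other listed complement genes at 20 CPM or more in either class, and for each member the 3 genes with the highest Pearson r over log2 levels. Some listed genes are counted with the list but are not reported here by name. The members and lists were chosen with earlier results of these data known. "Past the fold" means 1.5-fold or more among genes with at least 50 UMIs in the class. Medians of log2 ratios add 0.5 to each count.

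Alternatives were a stricter filter (1000 genes, 5% mitochondrial UMIs), doublets kept, resolutions 0.4 and 1.6, complement genes kept for clustering, separate clustering, a marker gate, per-cell averages, another scaling, thinning to 2000 UMIs, and minimums of 1 and 200 UMIs. Coordinates are from GENCODE M21 on GRCm38 and promoters from RefSeq. Interval code was tested on simulated data. Python 3.11.15, numpy 2.4.6, scipy 1.17.1 and pandas 2.3.3 were used.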

Additional observations from a re-analysis of the deposited data

Results flagged for a closer look

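C1qa, C1qb and C1qc moved one way between the PBS libraries in macrophage/monocyte-like cells and the other way in FAP-like cells, and no test of the difference was possible with 1 library a group. The age ratio of C1qa was 0.974 in macrophage/monocyte-like and 1.86 in FAP-like cells, that of C1qb 0.915 and 1.61, and that of C1qc 0.961 and 1.75. Beside them, the 8 macrophage reference genes had age ratios of 1.29 to 1.78 in FAP-like cells, and without sub-cluster 11 the FAP-like ratios of the chains were 1.18, 1.14 and 1.22. With the makeup of sub-clusters held equal, the macrophage/monocyte-like age ratios were 1.04 for C1qa, 0.978 for C1qb and 1.01 for C1qc. Those of C1qa and C1qc were then above 1, as in FAP-like cells. The treatment ratio of C1qb was 1.02 in macrophage/monocyte-like and 0.771 in FAP-like cells, or 0.990 without sub-cluster 11 (0.909 to 1.08).

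C1ra had a treatment ratio of 1.25 (1.10 to 1.42) in macrophage/monocyte-like cells, from 418 and 609 UMIs, and of 0.770 (0.744 to 0.798) in FAP-like cells, from 5973 and 6508 UMIs. This difference was not tested.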

How the results depend on the processing

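No paired analysis was possible because each group has 1 library. Makeup held equal, the unnamed cluster counted as macrophage/monocyte-like, and sub-cluster 11 left out were chosen after seeing the data. In FAP-like cells the age ratios of C3, C4b, C7, C1s1 and C1ra stayed above 1 and their treatment ratios below 1 under the 12 alternatives run for each, from 1.54 to 2.01 and 0.701 to 0.828 for C3 and from 3.28 to 6.97 and 0.606 to 0.843 for C7.

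The 1 macrophage/monocyte-like member past the fold for age was 0 with the stricter cell filter, doublets kept, resolutions 0.4 and 1.6, complement genes kept for clustering, separate clustering and the unnamed cluster counted in. In FAP-like cells, 7 members past the fold for age became 3 with doublets kept or without sub-cluster 11, 4 thinned and 2 with makeup held equal, and the median log2 age ratio of 0.81 became 0.31 (doublets kept), 0.62 (marker gate), 0.66 (per-cell average), 0.53 (thinned), 0.48 (makeup equal) and 0.51 (without sub-cluster 11). The 1 member past the fold for treatment became 3 (stricter filter, resolution 1.6, thinned), 2 (complement genes kept, other scaling) or 0 (doublets kept, makeup equal), and the median of -0.49 became -0.33 (doublets kept), -0.38 (marker gate), -0.27 (makeup equal) and -0.38 (without sub-cluster 11).

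Macrophage/monocyte-like ratios lay near 1 and changed side. The median log2 age ratio of -0.0003 became 0.0249 (marker gate), 0.0380 (per-cell average), 0.0273 (thinned) and 0.0338 (makeup equal), and the treatment median of -0.08 became 0.15 with separate clustering, where C1qa was at 1.09 and C1qc at 1.05. C3ar1 was at 0.980 for age and 1.01 for treatment with the stricter filter. With makeup held equal C1qa was at 1.04, C1qc at 1.01 and C3ar1 at 0.985 for age and 1.01 for treatment. C1qb for treatment was at 0.9995 with the marker gate and 0.987 with the other scaling. The age ratio of the share of FAP-like cells with C1ra, 1.30 thinned, was 0.991 unthinned. The cause was not tested in any of these. Of the other results, 142 values moved by less than counting error and 99 by more.

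A library holds several pooled mice and cannot show the spread between them, which no interval here covers. C7 is the member most limited by depth, at 76 UMIs in young PBS.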

Other observations

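Cells with no class name made up 5.40%, 8.35% and 7.17% of kept cells in the 3 libraries. Of these, 908 were in 4 sub-clusters taken out of the named classes, the largest with 610 cells, led by Hbb-bs, Gm26917 and Slfn4 at a median of 2114 UMIs, and 1307 were in a whole cluster. This cluster was led by Mmp12, Ear2, F10, Dnmt3aos and Mmp19 and held 3.33%, 4.91% and 4.12% of kept cells in young PBS, old PBS and old rMETRNL. C1qa was at 1181, 1234 and 1015 CPM there, C1qb at 2184, 2375 and 2056, C1qc at 1144, 1152 and 972, and C3ar1 at 494, 429 and 475. C3 was at 25.7, 23.0 and 17.2 and C4b at 7.40, 4.95 and 8.68.

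In tenocyte-like cells C3, C4b, C1s1 and C1ra were highest in old PBS, while C7 was highest in old rMETRNL, at 1.54, 7.10 and 10.01 CPM from 7, 16 and 44 UMIs. C3 was at 222, 360.1 and 251 CPM, an age ratio of 1.62 (1.48 to 1.78), and C4b at 14.7, 40.8 and 30.9, an age ratio of 2.77. C1qa was at 90.8, 298 and 114 in the same cells, an age ratio of 3.28 (2.90 to 3.72), larger than in FAP-like cells. After thinning it was detected in 8.29%, 10.1% and 8.84% of tenocyte-like cells. Its age ratio was also above 1 in endothelial-like (2.34) and myocyte-like cells (2.18), but 0.570 in pericyte/smooth muscle-like and 0.971 in dendritic-like cells. Depth differed between young PBS and old PBS, with median UMIs of 11319.5 and 3914 in endothelial-like and 27768 and 3478.5 in myocyte-like cells. They were 6833 and 4034 in pericyte/smooth muscle-like cells. An effect of depth on these ratios was not tested. Macrophage reference genes were not set beside C1qa in tenocyte-like cells, and no expression of C1q there is read from these values.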
